A study of Mus musculus with 2 samples.

Results

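The genes described here are 6 insulin-like growth factor binding protein genes (Igfbp2, Igfbp3, Igfbp4, Igfbp5, Igfbp6 and Igfbp7), the ligand gene Igf1, the receptor gene Igf1r and the docking protein genes Irs1 and Irs4. They were selected on their gene family and on differences between these same arrays, so the differences below are a description of what chose them and carry no test. Every probe set annotated to exactly 1 of these genes was taken, which gave 27 probe sets for 10 genes out of 34945 usable probe sets for 18193 genes. No probe set naming several genes named a member. The study compared 1 culture of C57BL/6 mouse embryonic stem cells labelled MOF +/+ (wild type) with 1 labelled MOF-/- (Mof null). Mof is the product of Kat8 and acetylates histone H4. Both lines came from embryos 3.5 days post coitum, were at passage 15 to 18, and were kept with LIF on mouse embryonic fibroblast feeders until 2 feeder-free passages before RNA was taken. How the null allele was made and how many clones each culture holds are not given in the sources used here. Total RNA was hybridised to 1 Affymetrix array per culture, and the values are RMA values on a log2 scale.

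Insulin-like growth factors are secreted peptides that promote growth and survival through the receptor tyrosine kinase Igf1r. The receptor phosphorylates docking proteins of the Irs family, which recruit PI3-kinase and lead to activation of Akt. Binding proteins in the extracellular space hold the ligands, lengthen their life and limit or deliver their access to the receptor, and proteases that cleave the binding proteins release the ligand. Mesenchymal cells, fibroblasts among them, are well-known sources of several binding proteins and of Igf1.

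With 1 array per genotype no difference has a replicate error or a p-value. A gene is represented by its brightest probe set over both arrays, and it passed the level filter if either array was at or above 6.02, the median of all values. Genes past an absolute log2 difference of 1 (2-fold) were counted. The values of the wild-type-labelled array had a median of 6.02 and those of the null-labelled array 6.01. The only measurable spread was that between probe sets of the same gene, whose differences had a pooled SD of 0.33 over 5362 genes, and it holds no variation between cultures. Kat8 itself read 8.06 on the wild-type-labelled array and 8.37 on the null-labelled array. That is a difference against the labelled direction, and since the position of its probe set relative to the deletion is not given, it checks nothing about the labels. The arrays are therefore called wild-type-labelled and null-labelled below, and directions follow those labels.

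Upstream sequences are shown for 2 contrasts in which closely related genes differed in opposite directions: the neighbouring genes Igfbp2 and Igfbp5, and the docking protein genes Irs4 and Irs1. Each run is the 250 bases before the RefSeq gene start (GRCm38.p6), 5′ to 3′ on the strand of the gene. The windows are chr1:72824230-72824479 (+) for Igfbp2, chr1:72874866-72875115 (-) for Igfbp5, chrX:141725218-141725467 (-) for Irs4 and chr1:82291440-82291689 (-) for Irs1. Capitals mark any of 6 motifs, searched on both strands: the TATA box TATAAA, the GC box GGGCGG, the hypoxia response core ACGTG, the AP-1 site TGACTCA, the TEAD site GGAATG and the E-box CACGTG, which holds ACGTG on both strands.
Igfbp2: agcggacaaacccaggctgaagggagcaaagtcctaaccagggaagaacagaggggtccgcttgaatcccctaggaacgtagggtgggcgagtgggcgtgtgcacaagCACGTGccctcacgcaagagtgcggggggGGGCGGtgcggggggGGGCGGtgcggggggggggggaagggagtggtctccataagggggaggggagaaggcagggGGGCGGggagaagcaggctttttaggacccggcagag
Igfbp5: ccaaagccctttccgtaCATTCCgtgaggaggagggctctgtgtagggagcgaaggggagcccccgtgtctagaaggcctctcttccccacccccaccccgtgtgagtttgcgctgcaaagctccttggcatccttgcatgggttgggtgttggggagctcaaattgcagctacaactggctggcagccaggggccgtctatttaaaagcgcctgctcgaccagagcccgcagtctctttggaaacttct
Irs4: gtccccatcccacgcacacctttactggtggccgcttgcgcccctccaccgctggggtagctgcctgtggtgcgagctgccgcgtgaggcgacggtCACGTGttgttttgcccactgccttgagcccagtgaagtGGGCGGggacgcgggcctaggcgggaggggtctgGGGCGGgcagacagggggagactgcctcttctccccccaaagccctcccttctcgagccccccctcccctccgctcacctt
Irs1: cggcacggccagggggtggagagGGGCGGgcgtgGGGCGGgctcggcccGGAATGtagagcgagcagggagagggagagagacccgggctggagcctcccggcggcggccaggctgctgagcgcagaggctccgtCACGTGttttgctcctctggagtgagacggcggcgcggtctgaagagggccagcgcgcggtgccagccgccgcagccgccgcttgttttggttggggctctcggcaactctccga

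The E-box was present in the windows of Igfbp2, Irs1 and Irs4, against 6.02% of the 32851 windows of this length in the table, and it was added to the motifs after these windows had been read. It was thus in both genes that were higher on the null-labelled array and in the gene that was most reduced. GC boxes occurred 3 times in the Igfbp2 window and 2 times each in those of Irs1 and Irs4, and 5 of 11 windows of the 10 genes held one, against 32.7% of all windows. The Igfbp5 window held a TEAD site and no GC box. The letters of the TATA box were found in the windows of Igfbp4 and Igfbp6, against 12.4% of all windows. The Igfbp4 match was forward, from base -28 relative to the start listed for its window, and the Igfbp6 match was reverse, from base -148. The start listed for the Igfbp4 window is not the RefSeq gene start. The same holds for the windows of Igf1 and Igfbp3 and for the second Igfbp2 window. The hypoxia response core occurred in 4 of the 11 windows (16.6% of all), the TEAD site in 2 (12.6%) and the AP-1 site in 1, a second Igfbp2 start (4.46%). GC content ran from 49.6% to 77.6% and was above the median of all windows, 52.4%, in 10 of the 11. These matches describe letters in a window and are not sites of binding.

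The binding protein genes divided into 5 that were at least 2-fold lower and 1 that was at least 2-fold higher on the null-labelled array. Among all 10 genes, each of which passed the level filter on its brightest probe set, 7 were at least 2-fold lower, 2 higher and 1 under 2-fold. The background was 11.9% of 12015 expressed genes lower and 5.09% higher. At the level of probe sets, 26 of the 27 passed the filter, and of these 17 were lower, 2 higher and 7 under 2-fold, against 11.1% lower and 4.49% higher among all expressed probe sets. The median difference of the 10 genes was -1.82, while that of all expressed genes was 0.10. As these genes were chosen with their differences known, nothing is read from these shares.

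**Figure D1:**
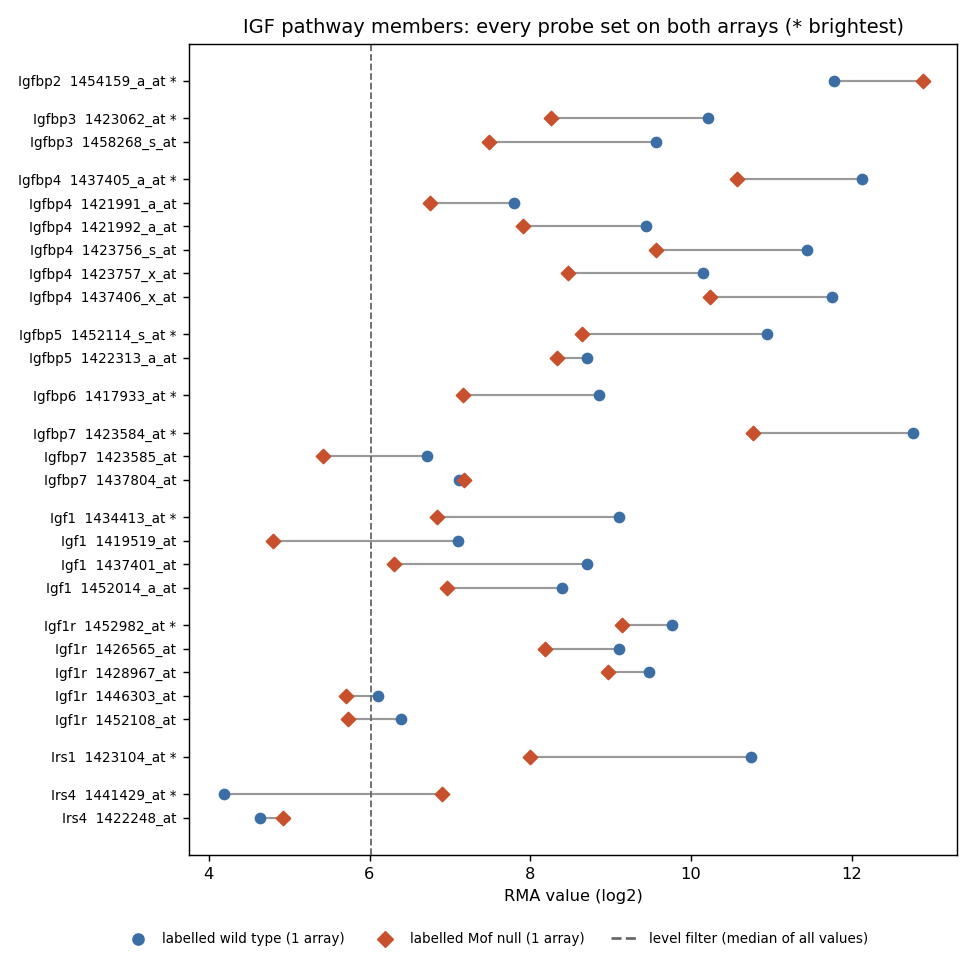
RMA values (log2, horizontal axis) of all 27 probe sets of the 10 genes, with circles for the wild-type-labelled array, diamonds for the null-labelled array, an asterisk at the brightest probe set of each gene and a dashed line at the level filter of 6.02. Most diamonds lie to the left of their circles, whereas Igfbp2 and Irs4 run the other way and the Irs4 probe sets differ in size, at 2.72 and 0.29 log2 units.

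Igfbp2 (Entrez gene 16008) encodes a binding protein that is abundant in fetal tissues and prefers Igf2 as its ligand. Its single probe set read 11.78 on the wild-type-labelled array and 12.88 on the null-labelled array. This is a difference of 1.10 log2 units, or 2.14-fold higher, and no second probe set was there to set beside it. It lay close to the 2-fold line and fell under it, to 0.99, when differences were centred on the median expressed gene. Measured against the median of the pluripotency markers, a scaling that lowers every gene by 0.75, it was 0.35. The 12 pluripotency markers, listed below, were themselves higher by a median of 0.75.

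Igfbp5 (Entrez gene 16011), a binding protein of bone, muscle and fibroblasts that also attaches to extracellular matrix, is the next measured protein-coding gene after Igfbp2 on the same chromosome. Its brightest probe set, 1452114_s_at, read 10.95 on the wild-type-labelled array and 8.65 on the null-labelled array, a difference of -2.30 or 4.93-fold. Its other probe set, 1422313_a_at, read 8.71 and 8.34 and differed by -0.37. The probe sets thus shared a sign and disagreed on size by far more than the pooled spread. The brightest one carries the suffix _s_at, given to probe sets that can match several transcripts, and without such probe sets Igfbp5 was under 2-fold. On the far side of Igfbp2, the ribosomal protein gene Rpl37a differed by 0.17.

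Igfbp3 (Entrez gene 16009) encodes the main carrier of insulin-like growth factors in serum. Its brightest probe set read 10.21 and 8.26 on the wild-type-labelled and the null-labelled array, a difference of -1.95 or 3.85-fold. The second probe set read 9.56 and 7.49, which gave -2.08, so the probe sets differed by less than the pooled spread. Igfbp1, the binding protein gene beside Igfbp3 and the only one of the 7 numbered family genes outside the set, stayed below the level filter on both arrays at 4.01 and 4.48.

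Igfbp4 (Entrez gene 16010), whose product mainly restrains ligand action and is cleaved by the protease Pappa, had the most probe sets. Its brightest probe set read 12.13 on the wild-type-labelled array and 10.58 on the null-labelled array, a difference of -1.56 or 2.94-fold. All 6 probe sets were at least 2-fold lower, from -1.88 to -1.04. Neighbouring Top2a, a proliferation-linked topoisomerase gene, was higher by 1.81-fold, so the pair ran in opposite directions.

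Igfbp6 (Entrez gene 16012) encodes a binding protein with a strong preference for Igf2, and its single probe set read 8.86 and 7.17, a difference of -1.69 or 3.23-fold. Igfbp7 (Entrez gene 29817), a more distant relative that binds the ligands weakly and is deposited in vessel walls and matrix, read 12.76 and 10.77 on its brightest probe set. That difference was -2.00, or 3.99-fold lower on the null-labelled array. A second Igfbp7 probe set read 6.72 and 5.42, a difference of -1.30. The third, 1437804_at, read 7.12 and 7.18 and differed by 0.058, so 1 of 3 probe sets of this gene did not separate the arrays.

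The ligand gene Igf1 was at least 2-fold lower and its receptor gene was not. Igf1 (Entrez gene 16000) read 9.10 on the wild-type-labelled array and 6.84 on the null-labelled array on its brightest probe set, a difference of -2.26 or 4.80-fold. All 4 of its probe sets were at least 2-fold lower, from -2.40 to -1.44. Igf1r (Entrez gene 16001) read 9.77 and 9.15, a difference of -0.62 or 1.54-fold. Its 5 probe sets all lay below 0, from -0.92 to -0.41, and none reached 2-fold. With differences taken relative to the pluripotency markers Igf1r lay at -1.37, past 2-fold.

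On their brightest probe sets, the docking protein genes Irs1 and Irs4 differed in opposite directions, Irs1 by -2.75 and Irs4 by 2.72. The other Irs4 probe set differed by 0.29. Irs1 (Entrez gene 16367), the broadly used substrate of the insulin and Igf1 receptors, read 10.75 on the wild-type-labelled array and 8.00 on the null-labelled array with its single probe set. The difference of -2.75, or 6.73-fold, was the 52nd most negative among 12015 expressed genes. The nearest measured genes on each side of Irs1 were Dock10 at -1.96 and Rhbdd1 at -0.69. Dock10 went from 6.66 to 4.70, the latter below the filter.

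Irs4 (Entrez gene 16370) is an X-linked member of the same family with a narrow tissue range. Its probe set 1441429_at read 4.19 on the wild-type-labelled array, below the level filter, and 6.91 on the null-labelled array, a difference of 2.72 or 6.58-fold that ranked 6 from the top among expressed genes. The other probe set, 1422248_at, read 4.63 and 4.92, below the filter on both arrays, with a difference of 0.29. The annotation ties the first to an expressed sequence tag and the second to the RefSeq transcript, and which part of the transcript each reads is not given. The high value of Irs4 therefore rests on 1 of 2 probe sets on 1 array, and the mean of both did not pass the level filter. Its nearest measured neighbours on the X chromosome were Col4a5, a basement membrane collagen gene that was lower by 6.69-fold, and Nxt2, higher by 1.35-fold.

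**Figure D2:**
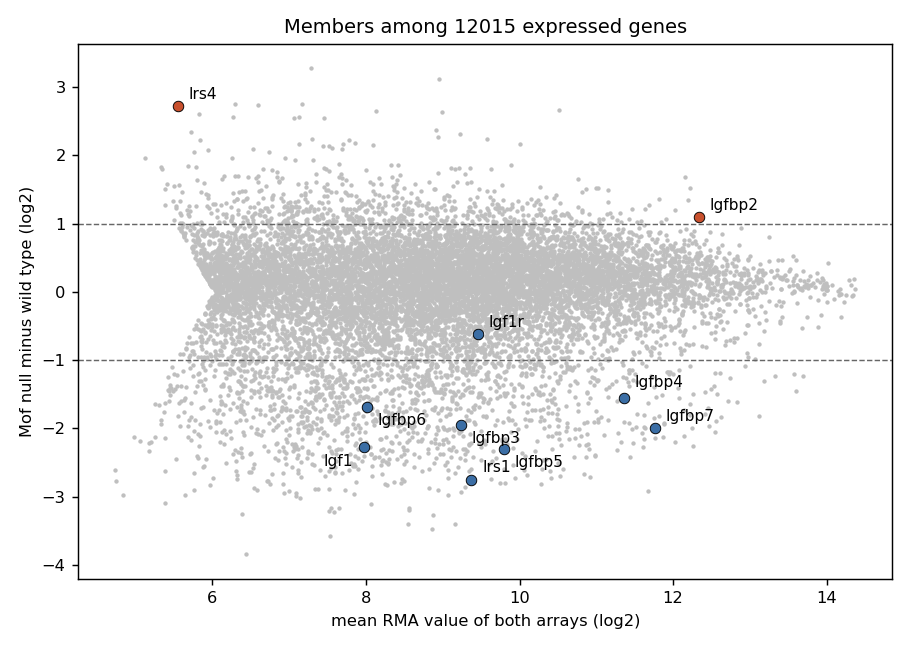
Difference (Mof null minus wild type, log2, vertical axis) against mean RMA value of both arrays (log2, horizontal axis) for 12015 expressed genes in grey, with the 10 genes labelled (blue below 0, orange above 0) and dashed lines at 2-fold. Irs4 lies near the upper edge at low mean level, Igfbp2 just above the upper line at high level, and Irs1 lowest of the 10 at -2.75.

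The genes whose pair of values was most like that of Irs4 were chosen by the smallest Euclidean distance over the 2 arrays, a likeness that with so few arrays says only that the values are close. They were Defb42 (distance 0.36), the homeobox gene Crxos (0.39), the fucosyltransferase gene Fut9 (0.54), Slc23a1 (0.56) and the homeobox gene Lhx1 (0.65). Like Irs4, each read below the level filter on the wild-type-labelled array, from 4.52 to 4.76, and passed it only on the null-labelled array. Closest to Igfbp5 were the chemokine gene Ccl9 (0.030), the phospholipase gene Pla2g4a (0.080) and the immediate early gene Egr1 (0.095).

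Of the other ligand and receptor genes, Igf2 was at least 2-fold lower and the others were not. Igf2, the fetal ligand, read 12.47 on the wild-type-labelled array and 10.46 on the null-labelled array, 4.01-fold lower. Over the 6 genes of this list outside the set, all expressed, the median was 0.046. The insulin receptor gene Insr differed by 0.092 and the clearance receptor gene Igf2r by -0.56. The receptor-related gene Insrr differed by 0.57 and Igfals, which encodes the partner of the serum complex, by 0.16. Insrr read 5.56 and 6.13 and Igfals 6.03 and 6.19 on the wild-type-labelled and the null-labelled array, near the filter of 6.02.

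The docking, adaptor and PI3-kinase genes that were at least 2-fold lower made up a share near the 11.9% of all expressed genes, and none was that much higher on its brightest probe set, against 5.09%. Of 17 further expressed docking and adaptor genes 2 (11.8%) were past 2-fold on the brightest probe set, each lower, and the median was -0.19. These were the receptor inhibitor gene Grb14 at 3.54-fold and Gab2 at 2.88-fold, the latter with another probe set at 0.25. Irs2, the remaining major docking protein gene, was lower by 1.78-fold, and Gab1 was higher by 1.80-fold, with another probe set past 2-fold at 1.05. Of 28 expressed genes from PI3-kinase to mTOR and FoxO, 4 (14.3%) were past 2-fold, each lower, and the median was -0.092. They were the PI3-kinase regulatory subunit genes Pik3r3 (2.84-fold) and Pik3r1 (2.61-fold), the kinase gene Akt1 (2.64-fold) and Gsk3b (2.02-fold). Foxo1 was higher by 1.41-fold and Foxo3 lower by 1.28-fold. Other probe sets of Pik3r1, Akt1 and Gsk3b were under 2-fold, at -0.26, 0 and 0.013 at the least.

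Of 14 expressed FoxO-induced genes, which rise in many cells when Akt activity is low, 3 (21.4%, against 11.9% of all expressed genes) were at least 2-fold lower, none was higher and the median was -0.26. In a list of this size nothing is read from that share. The repressor gene Bcl6 was lower by 3.29-fold, the ubiquitin ligase gene Fbxo32 by 2.24-fold and Sesn3 by 2.17-fold, each with another probe set under 2-fold, while Trib1 was lower by 1.94-fold. Both expressed genes for IGF2 mRNA-binding proteins were higher and under 2-fold, Igf2bp3 by 1.63-fold and Igf2bp1 by 1.47-fold.

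Among extracellular partners of the binding proteins, the proteases Pappa and Adam12 and most expressed domain relatives were lower. Of 10 expressed protease and protease inhibitor genes 4 were at least 2-fold lower, 1 higher, and the median was -0.79. Pappa, the protease of Igfbp4 and Igfbp5, was lower by 5.84-fold, Adam12 by 5.39-fold, Htra3 by 3.32-fold and Adam9 by 2.64-fold. Stc2, an inhibitor of Pappa named here after its value was seen, was the higher one at 2.58-fold, with another probe set at 0.44. Of 11 genes that share the binding protein domain, 5 were below the filter on both arrays. Of the 6 expressed ones, 5 passed 2-fold downward (83.3%, against 11.9% of all expressed genes), and their median was -1.31. These included the CCN family genes Ccn4 (6.07-fold), Ccn3 (5.79-fold) and Ccn5 (2.47-fold), and Crim1 (2.48-fold). Over all pathway lists, 81 of 91 genes outside the set were expressed, with a median of -0.23. Of these, 19 were at least 2-fold lower and 1 higher (23.5% and 1.23%, against 11.9% and 5.09% of all expressed genes). The lists were chosen with earlier results of these data known, so nothing is read from these shares.

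**Figure D3:**
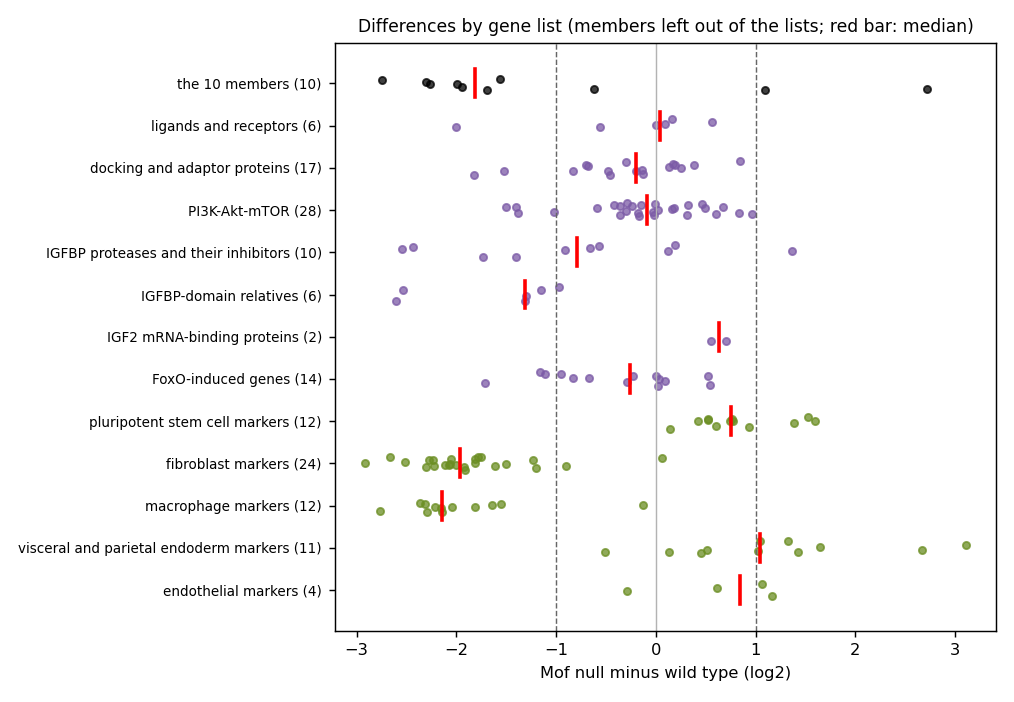
Difference (Mof null minus wild type, log2, horizontal axis) of each expressed gene, 1 point per gene, for the 10 genes (black), the pathway lists (purple) and the cell type marker lists (green), with red bars at the medians, dashed lines at 2-fold and the number of genes in brackets. The 7 lower genes of the set lie in the same range as the fibroblast and macrophage markers, whose medians are -1.96 and -2.15.

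Markers of fibroblasts, the feeder cell type, were lower together with the lower genes of the set. Of 24 fibroblast markers, none of them a member and all above the filter, 22 were at least 2-fold lower, with differences from -2.92 to 0.066. That is 91.7%, against 11.9% of all expressed genes. Col1a1 was lower by 7.57-fold and S100a4 by 6.33-fold, whereas Fbln1 differed by 0.066. The summed linear level of the list (2 raised to each RMA value) was 153412 on the wild-type-labelled array and 46951 on the null-labelled array, a ratio of 3.27. Relative to the median of this list, Igfbp3 lay at 0.019, Igfbp7 at -0.033, Igfbp6 at 0.27, Igf1 at -0.30, Igfbp5 at -0.34, Igfbp4 at 0.41 and Irs1 at -0.79. In bulk RNA, fewer cells of a type and less RNA per cell cannot be told apart, and the part of feeder cells and macrophages in these differences was not tested.

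Other marker lists were uneven between the arrays too. For the counts below, the background over all expressed genes was 11.9% at least 2-fold lower and 5.09% higher. Of 12 macrophage markers, 11 were at least 2-fold lower, with Tyrobp at 5.16-fold, Ptprc at 6.80-fold from 8.10 to 5.33, the latter below the filter, and Laptm5 at 1.09-fold, and their summed level had a ratio of 3.44. All 12 pluripotency markers, which the label calls for, were above the filter on both arrays and higher on the null-labelled array, 3 of them at least 2-fold. Tcl1 was higher by 3.02-fold, Fgf4 by 2.87-fold and Nr0b1 by 1.11-fold, and the summed level of the list had a ratio of 0.63. Of 11 expressed markers of visceral and parietal endoderm 7 were at least 2-fold higher, with Amn at 8.65-fold, Cubn at 6.34-fold and Gata6 at 1.09-fold, while Afp was below the filter on both arrays. The summed level of all 12 endoderm markers, Afp included, had a ratio of 0.90, and of 0.38 without Sparc. Sparc held 78.5% of the sum on the wild-type-labelled array and was the one expressed marker of the list below 0 (-0.51). The sum without Sparc was computed after the values were seen. Of 4 expressed endothelial markers Pecam1 (2.24-fold) and Esam (2.09-fold) were higher and Kdr differed by -0.29, while Cdh5, Emcn and Cldn5 were below the filter. The summed ratio over all 7 endothelial markers, those below the filter included, was 0.60. The part of these cell types in the values of Igfbp2 and Irs4 was not tested.

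**Figure D4:**
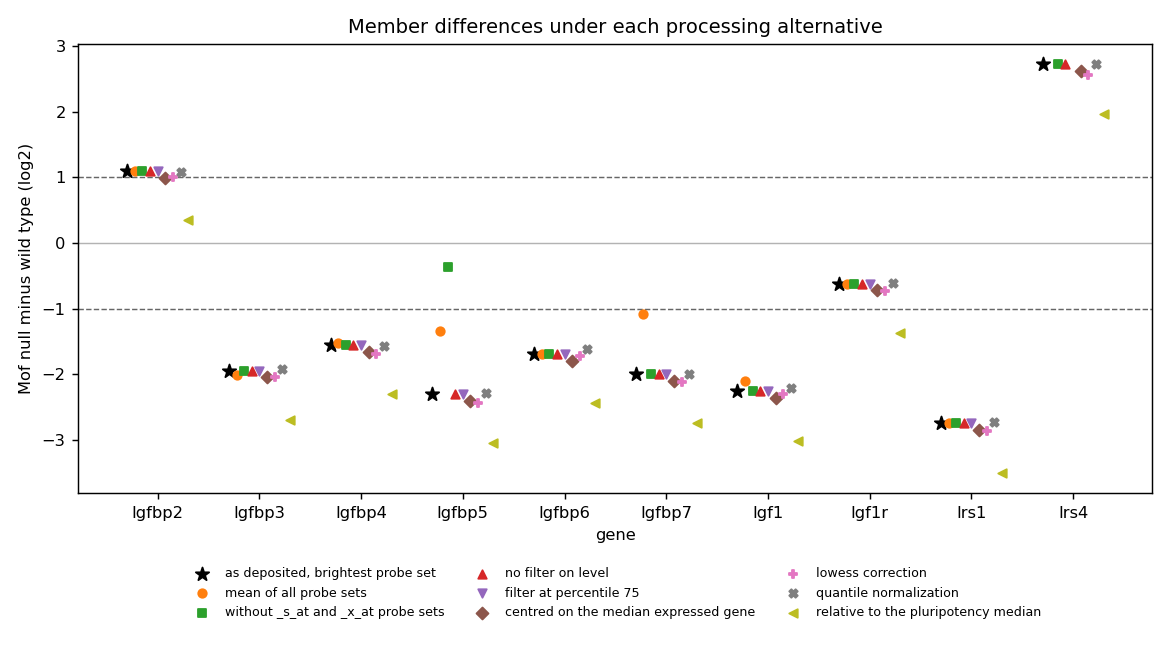
Difference (Mof null minus wild type, log2, vertical axis) of each of the 10 genes (horizontal axis) as deposited (black star) and under 8 processing alternatives (coloured symbols), with dashed lines at 2-fold. No difference changed sign, while Igfbp5 moved to -0.37 without the _s_at and _x_at probe sets and Irs4 has no symbol where it did not pass the level filter. Settings that change only the filter repeat each difference by construction.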

How the data were processed

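The deposited table gives 1 log2 value per array for each of 45101 probe sets. RMA, run with affy under R 2.10.0, is the method named in the submitters' processing notes. Quantile normalization, a step of RMA, hides a shift shared by most transcripts, and differences near the floor can be compressed in RMA values. The genome build and other arrays of the same RMA run are not given in the sources used here.

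Gene names came from the platform annotation, and 34741 of the 34945 used had their gene ID in the RefSeq table (GRCm38.p6), which served for names, gene order and upstream windows. Each gene took its probe set with the highest mean, and the filter was percentile 50 of all values. The number of arrays, 1 per genotype, limits the precision, so no test was run. The set, the 13 gene lists, the 2-fold rule and the named genes (up to 4 per pathway list by absolute difference, fixed key genes, and per marker list the 2 largest and the smallest) were chosen with earlier results of these data known. Of 108 listed pathway symbols 101 were found, and the others are not analysed here. Alternatives were other probe set rules, filters, scalings and thresholds. Software was Python 3.11.15 with numpy 2.4.6, pandas 2.3.3, statsmodels 0.14.6 and matplotlib 3.10.9.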

Additional observations from a re-analysis of the deposited data

How the results depend on the processing

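Over 78 differences of single genes of the set recomputed under 8 alternatives, none changed sign, 74 kept their side of 2-fold, 3 fell under it and 1 passed it. Many of these outcomes were fixed beforehand. Settings that change only the filter repeat each difference by construction, and a gene with 1 probe set cannot move under another probe set rule. Irs4 gave no value with the mean of all probe sets or the filter at percentile 75, as it did not pass the filter there. The count of the set's genes at least 2-fold higher, 2 as deposited, was 1 under both of these, after centring on the median expressed gene, relative to the pluripotency median and at 4-fold, and the count lower, 7, was 3 at 4-fold. The 19 lower pathway genes became 12 with the mean of all probe sets, 39 relative to the pluripotency median and 5 at 4-fold. The 1 higher pathway gene became 0 with the filter at percentile 75, relative to the pluripotency median and at 4-fold, 2 after quantile normalization and 7 at 1.5-fold. Relative to the pluripotency median the medians were -2.57 for the set and -0.98 for the pathway genes, and 1.65% of all genes past 2-fold were higher, against 29.95% as deposited. That scaling subtracts 0.75 from every gene, so these shifts follow by construction, as do those with thresholds. Centring subtracts 0.10 from every gene, which put Igfbp2 at 0.99. With the filter at percentile 75 counts change only by genes dropped, Irs4 among them. Irs4 was dropped with the mean of all probe sets too. The cause of the other shifts was not tested. Of 20 pathway genes past 2-fold, 8 had an expressed probe set under 2-fold or of opposite sign. No paired analysis was possible because there is 1 array per genotype, and none could be left out.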

Other observations

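Exactly the same value on both arrays was listed for 968 of the 45101 probe sets. They included the probe set of the insulin gene Ins2, at 6.81 on each array, and 1 of the probe sets of Akt1.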
